A study of Mus musculus with 6 samples.

Results

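Leprecan-like 1 (Leprel1), a collagen prolyl hydroxylase, was followed in 3 clones of the T lymphoma line EL4, which comes from a mouse. The gene was selected from earlier results of these same arrays for its difference between the clones C5 and V7, and its members were the probe sets that carry the name Leprecan-like 1 in the authors' deposited lists of differing probe sets. This gave 1 gene of the 1523 with a deposited gene name, and 1 probe set of the 45037 on the array that are not controls. The deposited identifier, AW553532, is a synonym of 1 mouse gene in RefSeq, P3h2 (prolyl 3-hydroxylase 2), the current symbol of Leprel1. Because its difference between the clones chose it, the levels and changes of Leprel1 are given as a description, without a test.

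Transcript levels were measured on 6 Affymetrix arrays, with 2 aliquots of cells from each of the 3 clones. C5 is labelled PMA-resistant, adherent and highly metastatic. V7 is labelled PMA-resistant, adherent and metastatic, and WT2 is labelled PMA-sensitive, non-adherent and non-metastatic. PMA is a phorbol ester that activates protein kinase C. All 3 clones were held in serum-free medium overnight and received nothing else, so the arrays show unstimulated cells. Each combination of labels is represented by 1 clone, and a difference between clones cannot be told apart from a difference between the phenotypes on their labels. Whether the 2 aliquots of a clone were grown apart is not stated in the labels. All p-values therefore rest on the spread from aliquot to aliquot, and this spread may be technical.

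Collagen chains are modified in the endoplasmic reticulum before they fold into a triple helix. Prolyl 4-hydroxylases modify many prolines and so stabilise the helix, whereas the prolyl 3-hydroxylases, the family of Leprel1, modify few. Leprel1 acts on basement membrane collagen (type IV) and on fibrillar collagens, and like its relatives it needs iron, 2-oxoglutarate and ascorbate. Collagen making is mostly known from fibroblasts, epithelium, cartilage and bone, and is not a usual trait of T cells.

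Values are MAS5 signals on a linear scale, which the authors had scaled so that the 2% trimmed mean was 125 on each array. Median signals of the arrays lay between 15.8 and 21.5, and no pair of arrays had identical values. The 3'/5' signal ratio of the Gapdh control probe sets, a sign of RNA integrity and labelling, was 1.15 and 0.829 in C5 and 0.960 and 0.887 in V7, against 1.51 and 1.77 in WT2. This ratio therefore moved with every comparison against WT2, and its part in those results was not tested. It overlapped between C5 and V7. The same ratio for actin was 2.91 and 1.87 in C5, 2.499 and 2.04 in V7, and 1.83 and 2.04 in WT2, and did not set WT2 apart from C5. Having 2 arrays per clone limits the precision of every value below.

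Leprel1 was high in C5, intermediate in WT2 and lowest in V7. Its signal was 194 and 193 in the C5 aliquots, 3.58 and 1.96 in the V7 aliquots, and 40.8 and 47.2 in the WT2 aliquots. The 3 clones did not overlap, and every neighbouring pair in this order stood farther apart than the aliquots of either clone. The means were 194 ± 0.291 in C5, 2.77 ± 1.15 in V7 and 44.0 ± 4.55 in WT2 (SD, n = 2 each). In bulk RNA of this kind, fewer expressing cells and less RNA per cell cannot be told apart.

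The same order held for the place of the probe set on each array, which does not depend on a scaling factor. Leprel1 stood at percentile 82.4 and 82.6 among all probe sets in C5, at 22.5 and 14.2 in V7, and at 63.3 and 65.1 in WT2. Probe sets bind their transcripts with different strength, so these percentiles place the readings in the range of the array and do not rank transcripts by amount. The plot of Leprel1 signal and rank by clone shows both measures.

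**Figure D1:**
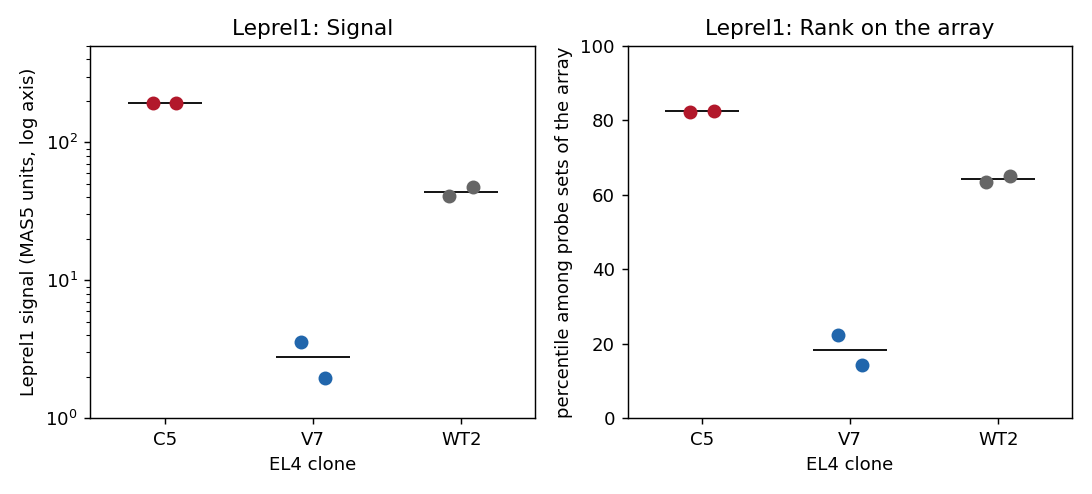
Leprel1 in the EL4 clones C5, V7 and WT2, with the MAS5 signal on a log axis at left and the percentile among all probe sets of the array at right. Points are the 2 aliquots of a clone and bars are their mean. The C5 points lie at 194 and 193, the V7 points at 3.58 and 1.96 and the WT2 points at 40.8 and 47.2, with no overlap in either panel.

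The aliquots of C5 lay closer together than was usual for their signal range. Their ratio was 1.002, against a median ratio of 1.14 over the 6502 probe sets with a C5 mean within 2-fold of that of Leprel1, and 99.2% of those had a ratio at least as large. The SD in C5 is therefore smaller than was usual at this signal. In V7 the aliquot ratio was 1.83, against a median of 2.52 over 9004 probe sets. In WT2 it was 1.16, against a median of 1.34 over 9309 probe sets.

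Differences were fitted on log2(signal + 5.03), where the added constant is the 25th percentile of all signals and damps ratios of dim probe sets. Between C5 and V7 the fitted change of Leprel1 was 4.68 (SE 0.29), or 25.6-fold on this scale. The files used here do not say whether the V7 readings stood above background. With V7 set at the added constant, which both its readings lay below, the C5 mean was 38.5-fold higher. The constant is not a detection limit, so this is no lower bound. The authors' deposited table, described below, gives a V7 mean of 36.3 and a ratio of 5.63. Because V7 is so low the fitted size has no firm value. The result moved with the added constant: it was 5.73 with a constant of 1 and 3.35 with the median signal as the constant.

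Leprel1 had the largest fitted rise in C5 over V7 of the 27022 probe sets tested. It also ranked first in the other settings tried, except that it ranked 3 with the median signal as the constant. In the limma fit across all probe sets, 27 (0.0999%) differed between C5 and V7 by at least 2-fold with an adjusted p (Benjamini-Hochberg) under 0.05, 8 of them higher in C5 (0.0296%) and 19 lower (0.0703%). Leprel1 was among the 8, and as this contrast chose the gene, nothing further is read from its place there.

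In the MAS5 signals, the adherent clones differed from WT2 in opposite directions. Leprel1 was higher in C5 than in WT2 by 2.02 on the log2 scale with the constant (SE 0.29), which is 4.06-fold, and the ratio of mean signals was 4.40. V7 stood below WT2, with a fitted change of -2.66 (SE 0.29), or 6.31-fold on that scale. With V7 set at the constant it was 8.75-fold lower than the WT2 mean, which again is no lower bound. The fitted change of V7 was -3.61 with a constant of 1 and -1.57 with the median constant. Of the 27022 probe sets tested, these changes ranked 426 among rises in C5 (the top 1.58%) and 337 among falls in V7 (the top 1.25%). The C5 and V7 arrays behind these ranks are those whose difference chose Leprel1, so nothing is read from the ranks. Many more probe sets differed from WT2 than between the adherent clones. Of all tested, 13.0% were called in C5 with WT2 (5.58% higher, 7.46% lower) and 12.5% in V7 with WT2 (5.29% higher, 7.23% lower). Quantile normalization of the arrays shifted the median change of all probe sets by 0.10 in C5 with WT2 and by 0.14 in V7 with WT2, and 1705 of 3234 calls in V7 with WT2 were then higher in V7, against 1430 of 3385 without it. Leprel1 kept its directions, at 2.16 in C5 with WT2 and -2.45 in V7 with WT2.

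Few probe sets were called in the directions of Leprel1 in both comparisons that involve V7. Of those tested, 4 (0.0148%) were called both higher in C5 than in V7 and lower in V7 than in WT2. They were Leprel1, both probe sets of protein kinase C eta (Prkch), a kinase that PMA can activate, and 1 of adenylate cyclase 7 (Adcy7), which makes cyclic AMP. The count includes the contrast that chose Leprel1, and the comparisons share arrays, so nothing is read from the place of Leprel1 there. It could not exceed the 8 probe sets called higher in C5 than in V7, so it does not measure how common the shape is. By Pearson's r, described below, 7 other probe sets reached 0.95 with Leprel1. In alternatives added after seeing the data, the count was 1 without the variance trend. It was 1 and 2 without C5 aliquot 1 and 2, 2 and 1 without V7 aliquot 1 and 2, and 8 and 10 without WT2 aliquot 1 and 2.

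The other members of that group differed from Leprel1 in where C5 stood relative to WT2. The dimmer Prkch probe set read 405 and 399 in C5, 171 and 181 in V7, and 481 and 518 in WT2. The brighter one read 1132 and 983 in C5, 504 and 455 in V7, and 1429 and 1505 in WT2. Adcy7 read 698 and 531 in C5, 237 and 246 in V7, and 2547 and 2701 in WT2. In all 3 the C5 arrays lay below the WT2 arrays, whereas both Leprel1 readings in C5 lay above WT2.

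Most probe sets as low in V7 as Leprel1 were also low in C5. A V7 mean no higher than that of Leprel1 was found for 6149 probe sets, Leprel1 included. Their median C5 mean was 3.12, and after Leprel1 the highest C5 mean among them was 31.2. The group is bounded by the V7 mean of Leprel1 and read on C5, and these values chose the gene, so its place in the group is a description only. The plot of C5 against V7 means for these probe sets shows the separation.

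**Figure D2:**
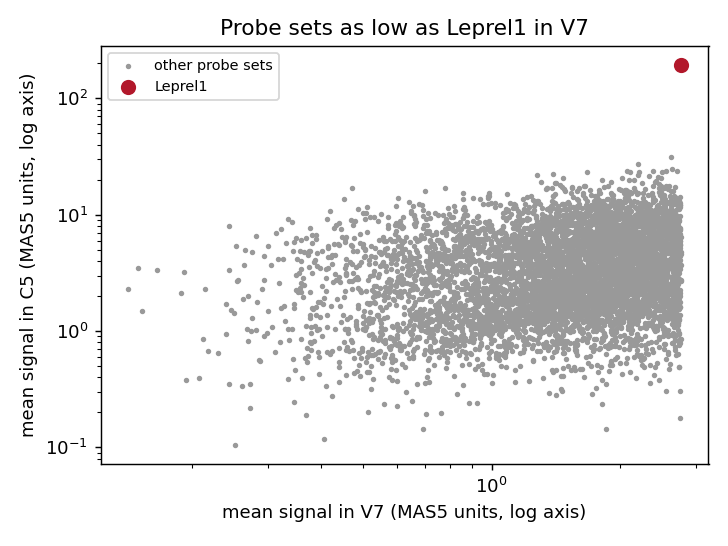
Mean MAS5 signal in C5 (vertical, log axis) against mean signal in V7 (horizontal, log axis) for the 6149 probe sets whose V7 mean is no higher than that of Leprel1. Grey points are other probe sets and the red point is Leprel1, which lies at a C5 mean of 194 while the next highest lies at 31.2.

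The authors' own values for Leprel1 gave the same direction with a smaller size. In the authors' deposited table for C5 and V7, which lists 102 probe sets that differ at least 2-fold, the Leprel1 means were 205 in C5 and 36.3 in V7. The authors' deposited table gives its ratio as 5.63, or 2.49 on the log2 scale, which ranks 8 of the 102 and 4 of the 20 listed as higher in C5. The C5 mean is thus close to the 194 of the signal table, whereas the V7 mean in the authors' deposited table is 13.1 times the 2.77 found there. How the list values were summarised is not given in the sources used here.

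Leprel1 was the listed probe set for which the sources differed most. Of the 102, 100 were tested here and all 100 had the direction given in the authors' deposited table. The fitted change of Leprel1 was 2.18 larger on the log2 scale than in the authors' deposited table, the widest gap of the 100, while the median gap was -0.09. For the 3 with a clone below the added constant, Leprel1 included, the median gap to the authors' deposited table was 1.03. For the 97 with both clones above it, that median was -0.10.

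**Figure D3:**
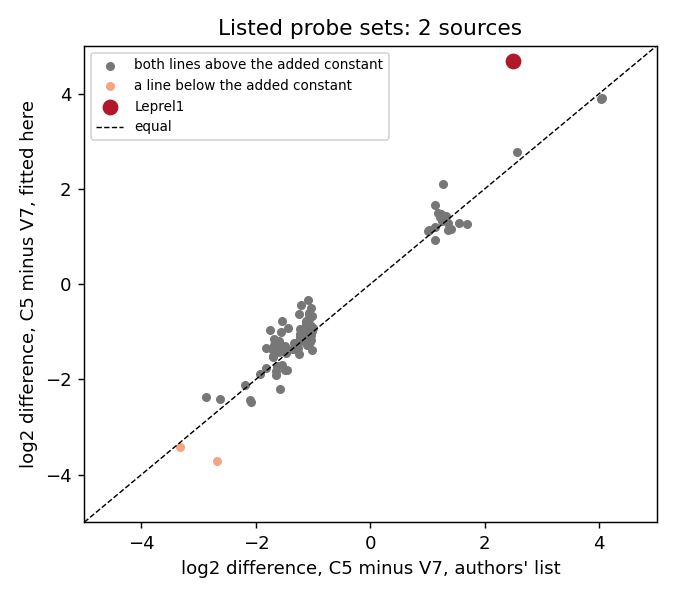
Log2 difference of C5 minus V7 for the 100 listed probe sets that were tested, as fitted here (vertical) and as given in the authors' deposited table (horizontal). The dashed line marks equal values, orange points have a clone below the added constant, and Leprel1 (red) lies at 4.68 and 2.49, the farthest above the line.

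Leprel1 was absent from the authors' deposited table for V7 and WT2, which lists probe sets that differ at least 2-fold. Among 336 other probe sets whose fitted fall in V7 was at least as large, 313 (93.2%) were in the authors' deposited table. Of the 139 of them with V7 below the added constant, 128 (92.1%) were in the authors' deposited table. Of the 51 that also had a WT2 mean within 2-fold of that of Leprel1, 43 were listed in the authors' deposited table. Its absence was therefore shared by a minority of comparable probe sets. The V7 mean of Leprel1 in the authors' deposited table for C5 and V7 was 36.3, beside a WT2 mean of 44.0 in the signal table. These values come from different summaries, and whether they account for the absence was not tested. Whether V7 stood clearly below WT2, and by how much, thus depends on which V7 value is used.

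Other enzymes and substrates of collagen making could be followed only in part, because names exist only for probe sets in the authors' lists. Of 63 genes in 7 lists of the collagen pathway, 3 were named: Leprel1, the prolyl 4-hydroxylase subunit P4ha2 and the laminin chain Lamb1. In the prolyl 3-hydroxylase family 1 of 6 genes was named. Among prolyl 4- and lysyl hydroxylases it was 1 of 7, and among basement membrane collagens and their partners 1 of 14. None of 8 genes of collagen glycosylation and folding, 8 of secretion and crosslinking, 13 of fibrillar and other collagens and 7 other 2-oxoglutarate dioxygenases had a name. The authors listed P4ha2 and Lamb1 for a difference on these same arrays, so they are not independent evidence of one.

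P4ha2, a catalytic subunit of prolyl 4-hydroxylase, was high in both adherent clones. It read 172 and 181 in C5, 149 and 131 in V7, and 48.2 and 31.7 in WT2. The C5 and V7 arrays all lay above WT2. P4ha2 rose in C5 over WT2 by 2.04 (log2, SE 0.23, limma Benjamini-Hochberg adjusted p = 6.16e-05) and in V7 over WT2 by 1.71 (SE 0.23, limma adjusted p = 0.000233). Between C5 and V7 its change was 0.33 (SE 0.23, limma adjusted p = 0.913), so no difference of this enzyme between C5 and V7 was detectable with these arrays.

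Lamb1, the beta 1 chain of laminin, a basement membrane protein that assembles beside type IV collagen, was also higher in both adherent clones than in WT2. It read 700 and 868 in C5, 882 and 812 in V7, and 446 and 389 in WT2. C5 and V7 overlapped, and both lay above WT2. Lamb1 rose in V7 over WT2 by 1.01 (log2, SE 0.15, limma Benjamini-Hochberg adjusted p = 0.000458), just past the 2-fold limit. In C5 with WT2 it changed by 0.89 (SE 0.15, limma adjusted p = 0.00101), which is under 2-fold and was not called. Between C5 and V7 the change was -0.12 (SE 0.15, limma adjusted p = 0.968). The V7 call was lost without V7 aliquot 1 (0.95) and without WT2 aliquot 2 (0.92), and without C5 aliquot 1 the C5 change reached 1.05 and was called.

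For these 2 genes together, limma called 0 in C5 with V7, where 0.0999% of all tested were called. At an unadjusted limma p below 0.05 it was also 0, against 1756 of the 27022 tested. With 2 genes, 0 calls is near the share of all tested, so nothing is read from it. Against WT2, limma called 1 higher in C5 (5.58% of all tested) and 2 higher in V7 (5.29% of all tested). Both carry a name only because the authors listed them as differing. The median change of the pair was 0.10, 1.47 and 1.36 in these comparisons, against 0.02, -0.07 and -0.13 over all tested probe sets.

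More collagen and laminin names stood in the lists outside the genes just counted, and these were chosen after their values were seen, so they have no test. Lamb2, the laminin beta 2 chain, read 492 and 551 in C5, 511 and 583 in V7, and 2.06 and 13.0 in WT2, the highest signals being in the adherent clones. Col16a1, a collagen that associates with fibrils, read 5.87 and 4.28 in C5, 23.5 and 30.1 in V7, and 236 and 190 in WT2. Its WT2 arrays were the highest and its C5 arrays the lowest. Col22a1, a collagen of tissue junctions, read 66.7 and 53.1 in C5, 43.7 and 23.7 in V7, and 129 and 134 in WT2. A second Col22a1 probe set read 18.1 and 15.9 in C5, 16.4 and 19.8 in V7, and 79.1 and 98.2 in WT2, so the order of C5 and V7 differed between the probe sets. Col23a1, a transmembrane collagen, read 14.9 and 19.0 in C5, 11.7 and 9.07 in V7, and 56.1 and 39.4 in WT2. These named collagens were highest in WT2, and none had its highest readings in C5 as Leprel1 did. They carry a name only because the authors listed them as differing on these same arrays, so no pattern of collagens in general is read from them.

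Of the nearest genes on the chromosome 1 could be followed, and it stood differently in C5. In the RefSeq annotation of GRCm38.p6, the 5 protein-coding genes on either side of P3h2 are Rtp2, Bcl6, Lpp, Tprg and Trp63, and Cldn1, Cldn16, Tmem207, Il1rap and Gmnc. Only Trp63, next to P3h2, was named in the lists. The authors listed it for a difference on these same arrays, so its changes against WT2 are not independent evidence of one. The other neighbours could not be read. Trp63, a p53-family transcription factor known for its role in stratified epithelium, read 10.0 and 3.02 in C5, 1.42 and 3.55 in V7, and 284 and 337 in WT2. C5 and V7 overlapped at low signal, and WT2 stood far above both.

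Trp63 fell in C5 relative to WT2 with a change of -4.84 (log2, SE 0.41, limma Benjamini-Hochberg adjusted p = 6.74e-06) and in V7 relative to WT2 with -5.40 (SE 0.41, limma adjusted p = 2.85e-06). Between C5 and V7 its change was 0.57 (SE 0.41, limma adjusted p = 0.918), and 0.11 to 1.02 with 1 array left out. The sizes against WT2 moved with the constant, since C5 and V7 read low: they were -5.54 in C5 and -6.55 in V7 with a constant of 1, and -3.75 in C5 and -4.00 in V7 with the median signal, all called. In the MAS5 signals, V7 was therefore below WT2 for both genes, while C5 was above WT2 for Leprel1 and below it for Trp63. The plot of matrix genes and Trp63 sets these patterns side by side.

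**Figure D4:**
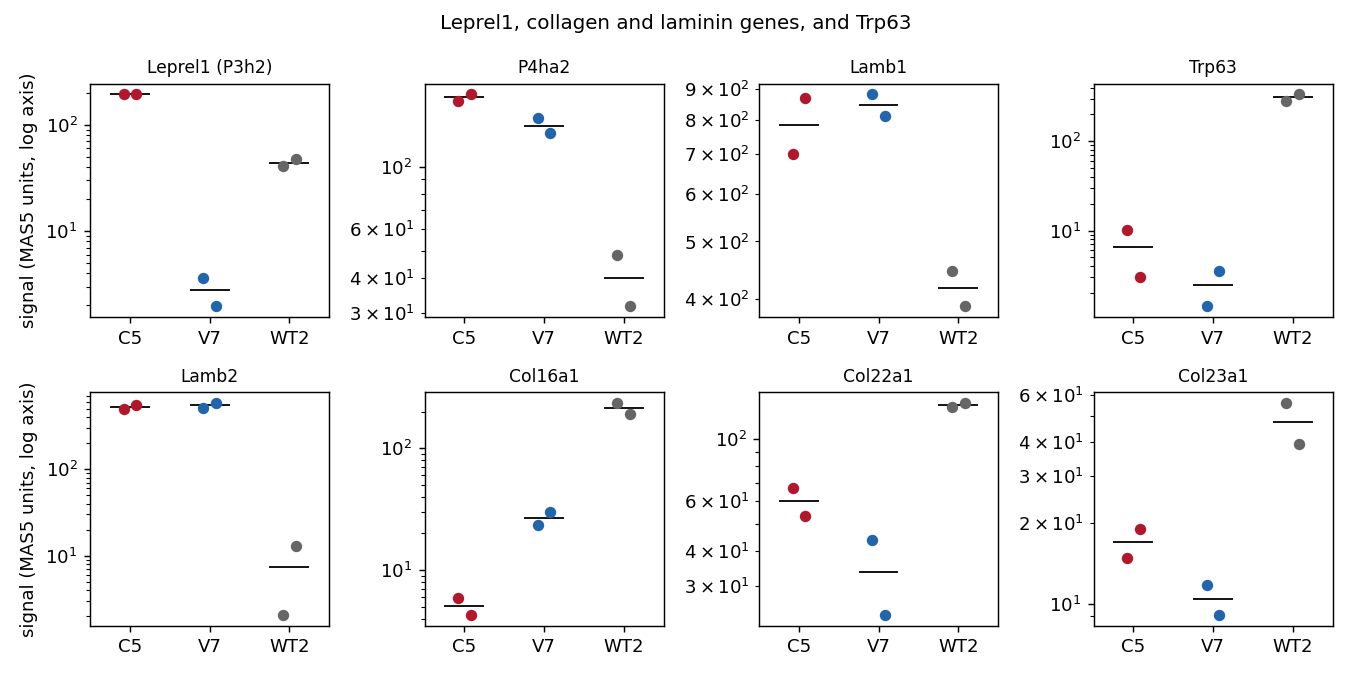
MAS5 signal (log axis, scaled separately in each panel) in the EL4 clones C5, V7 and WT2 for Leprel1 (P3h2), P4ha2, Lamb1, the neighbouring gene Trp63, and the laminin and collagen genes Lamb2, Col16a1, Col22a1 and Col23a1. Points are the 2 aliquots of a clone and bars are their mean. P4ha2, Lamb1 and Lamb2 are higher in C5 and V7 than in WT2, and Trp63 and the collagens are highest in WT2.

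Genes with the most similar pattern were found by Pearson's r of log2 values with Leprel1 over the 6 arrays, among 983 other tested probe sets with at least a 2-fold difference between C5 and V7. The arrays come from only 3 clones, so r mostly reflects the order and spacing of 3 levels and is a description. The highest r was 0.99, and 7 probe sets reached 0.95, none of them with a deposited gene name. Among the 104 with a name, the 8 most alike genes had r between 0.67 and 0.92. Of these 8, limma called 2 as different between C5 and V7, against 0.0999% of all tested probe sets. They were Regulator of G-protein signaling 18 and Protein kinase C, eta, and the other 6 did not pass. The 8 were taken from probe sets that already differed at least 2-fold between C5 and V7, so nothing is read from this count.

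The closest was Exocyst complex component 3-like (r = 0.92), named for a complex that tethers secretory vesicles. It read 70.4 and 74.2 in C5, 16.01 and 23.0 in V7, and 58.5 and 32.0 in WT2. Regulator of G-protein signaling 18 (r = 0.87), from a family that shortens G-protein signals, read 1899 and 1516 in C5, 109 and 112 in V7, and 129 and 164 in WT2. For that gene C5 stood apart while V7 and WT2 lay close together, unlike the intermediate WT2 level of Leprel1. Protein kinase C, eta followed with r = 0.80, and its WT2 arrays were the highest, as given above.

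Growth factor receptor bound protein 10 (r = 0.79), an adaptor that binds the insulin receptor, read 122 and 122 in C5, 26.8 and 5.80 in V7, and 29.4 and 8.52 in WT2. Stanniocalcin 1 (r = 0.67), a secreted glycoprotein, read 53.6 and 64.6 in C5, 11.1 and 8.67 in V7, and 3.25 and 5.64 in WT2. For both the C5 readings were the highest, though neither passed the test between C5 and V7 (limma adjusted p = 0.0993 and 0.173). V7 overlapped WT2 for the adaptor but lay above it for Stanniocalcin 1.

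The remaining 3 had WT2 readings that overlapped those of C5 or exceeded them. ST3 beta-galactoside alpha-2,3-sialyltransferase 2 (r = 0.77) read 10.995 and 21.9 in C5, 2.93 and 1.09 in V7, and 27.2 and 16.6 in WT2. Centaurin, gamma 1 (r = 0.73) read 30.9 and 48.9 in C5, 12.8 and 15.3 in V7, and 41.5 and 67.7 in WT2. Chemokine (C-X-C motif) receptor 6 (r = 0.68), the receptor of the chemokine CXCL16, read 66.7 and 68.6 in C5, 27.8 and 29.8 in V7, and 84.1 and 129 in WT2. With the median signal as the added constant, 5 of the 8 genes were again among the 8 most alike.

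**Figure D5:**
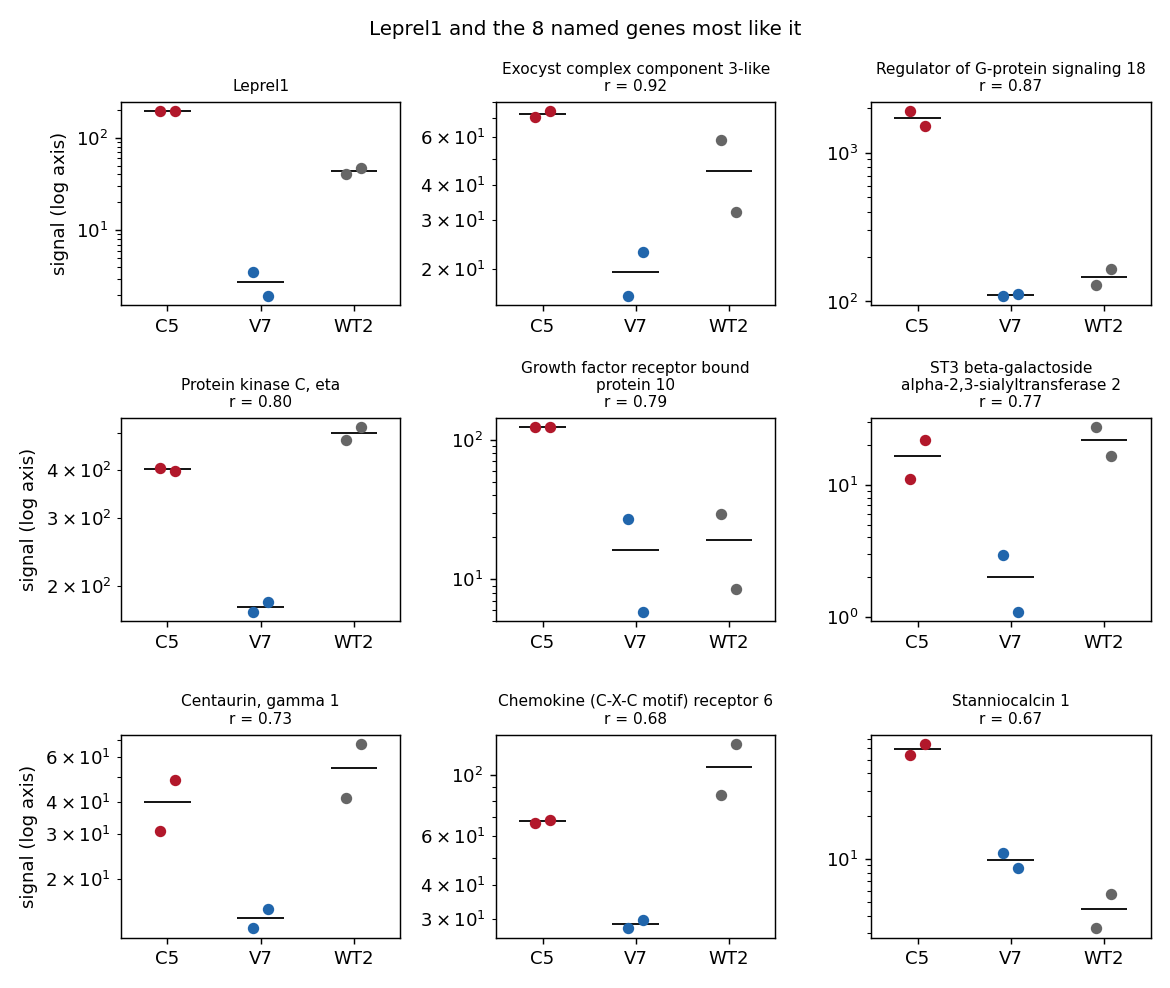
Signal (MAS5 units, log axis, scaled separately in each panel) in C5, V7 and WT2 for Leprel1 and the 8 named genes most like it, in order of Pearson's r, which each panel gives. Points are the 2 aliquots of a clone and bars are their mean. All 9 are lower in V7 than in C5, while the WT2 level lies below V7 for Stanniocalcin 1, near V7 for Regulator of G-protein signaling 18 and above C5 for Protein kinase C, eta.

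Markers of other cells that make collagen were checked beside these levels. Of 9 T cell markers 4 were named: Cd3e, a T cell receptor chain, read 1162 and 901 in C5, 1048 and 917 in V7, and 1867 and 2149 in WT2. Cd247, another such chain, read 1.30 and 1.03 in C5, 9.25 and 1.50015 in V7, and 574 and 618 in WT2. The adhesion receptor Cd2 read 6.79 and 0.934 in C5, 0.903 and 7.25 in V7, and 887 and 795 in WT2. Cd3e thus read 901 or more on every array. These Cd247 and Cd2 readings were 9.25 or lower in both adherent clones, under the median signal of each array. The surface receptor Cd5 read 52.5 and 39.8 in C5, 108 and 149 in V7, and 677 and 535 in WT2. The summed signal of the 4 was 1223 and 943 in C5, 1165 and 1074 in V7, and 4005 and 4097 in WT2, so it was lower in both adherent clones and its part in the comparisons of Leprel1 with WT2 was not tested. Of the 4, limma called 3 lower in C5 than in WT2 (7.46% of all tested) and 4 lower in V7 than in WT2 (7.23% of all tested). The 4 are only those markers that the authors' lists of differing probe sets name. None of them was listed at a signal of 0.

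Of 8 fibroblast markers 1 was named, Pdgfra, a growth factor receptor, at 47.2 and 48.2 in C5, 66.0 and 85.8 in V7, and 1.88 and 2.70 in WT2. Of 4 endothelial markers 1 was named, Pecam1, an adhesion molecule, at 48.4 and 66.6 in C5, 68.1 and 79.5 in V7, and 51.0 and 18.4 in WT2. None of 6 epithelial markers was named. The Pdgfra readings in V7 lay above those in C5, the reverse of Leprel1, but limma did not call that change (-0.61, adjusted p = 0.870). Against WT2, limma called Pdgfra higher in C5 (2.85), the direction of Leprel1, and higher in V7 (3.46). The Pecam1 readings of C5 and WT2 overlapped, and limma called it higher in V7 than in WT2 (1.12). Both markers are named only because the authors listed them as differing on these same arrays. The part of other cell types in the Leprel1 levels was not tested.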

How the data were processed

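RNA from 6 samples (EL4 clones C5, V7 and WT2, 2 aliquots each) was hybridised to Affymetrix arrays. The authors deposited linear signal intensities, 1 value for each probe set on an array, which come from MAS5 per the submitters' processing notes. They also deposited lists with a fold ratio, log2 means and p-values per the file headers; these gave gene names and the list values quoted for Leprel1, and their p-values were not used. Of 2451 listed probe sets, 1949 carried a gene name and 528 were given a symbol by RefSeq accession, synonym or by hand. A gene with several probe sets was represented by the brightest of them on average.

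Signals were analysed as log2(signal + 5.03). The 27022 probe sets with a mean above 11.7 (the 40th percentile) were fitted in limma 3.58.1 (R 4.3.3) with 1 mean per clone, all 6 arrays and a variance trend (3 residual and 8.47 prior degrees of freedom). Calls needed a two-sided Benjamini-Hochberg adjusted p below 0.05 and at least a 2-fold change. The fit was run on simulated data in which the clones were alike except for changes planted in C5. That setting lacks the many differences from WT2 seen here, and nothing about Leprel1 rests on it. Tables were made with pandas 2.3.3 and numpy 2.4.6 in Python 3.11.15, and figures with matplotlib 3.10.9.

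Leprel1, the gene lists and the markers were chosen with earlier results of these data known. Named genes were Leprel1, the 8 named genes with the highest r, called members of the lists and the named neighbours. Alternatives changed the constant, scaling, filter, variance trend, arrays used and the aliquot number as a block. Aliquots with the same number did not deviate together: the correlation of their differences was 0.04 for C5 with V7, 0.003 for C5 with WT2 and -0.04 for V7 with WT2. Sequences of Leprel1 were not used here.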

Additional observations from a re-analysis of the deposited data

How the results depend on the processing

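In fits to the MAS5 signals, Leprel1 kept the order C5 above WT2 above V7 under every alternative run with all 3 clones. The authors' deposited table for V7 and WT2 does not list it. Its change in C5 with V7 (4.68) was 5.73 with a constant of 1, 3.35 with the median signal as constant and, chosen after seeing the data, 2.49 in the authors' deposited table. C5 with WT2 (2.02) gave 1.77 with the median constant and 2.16 after quantile normalization. V7 with WT2 (-2.66) gave -3.61 with a constant of 1 and -1.57 with the median constant. Leaving out 1 array gave 4.53 to 4.83, 1.93 to 2.12 and -2.81 to -2.51 for these comparisons. The replicate block (aliquot number as a term) left all 3 Leprel1 changes as they were and gave 15 calls between C5 and V7, against 27. That count was 55 with the median constant, 4 without the variance trend and, chosen after seeing the data, 85 with C5 and V7 arrays only. It was 5 to 68 with 1 array left out: 6 and 7 without a C5 aliquot, 5 and 5 without a V7 aliquot, and 65 and 68 without a WT2 aliquot. Where this left 1 array in a clone, that array was assumed to vary like the others. Calls against WT2 stayed within 1.5 times, at 2869 to 3891 for C5 and 2704 to 3638 for V7 with 1 array left out. Of the 2 other collagen-pathway genes, 1 was called in V7 with WT2 with the median constant and after quantile normalization, and 1 to 2 with 1 array left out, as in C5 with WT2. Lamb1 accounted for this, at 0.99 with the median constant and 0.98 after quantile normalization. Of the 8 genes most like Leprel1, 7 remained with a constant of 1, 5 with the median constant and 8 after quantile normalization. Causes of these shifts were not tested. Both V7 readings of Leprel1 lay below the added constant, so its folds against V7 are the least certain of its values.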

Other observations

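Enzymes that share the 2-oxoglutarate chemistry of Leprel1 but act outside collagen were read after their values had been seen, without a test. Phyh, which breaks down branched fatty acids, read 257 and 226 in C5, 256 and 240 in V7, and 21.1 and 15.6 in WT2. Tmlhe, the first enzyme of carnitine synthesis, read 116 and 103 in C5, 98.5 and 102 in V7, and 1.25 and 0.526 in WT2. Both were high in the adherent clones and low in WT2, and neither had the low V7 level of Leprel1. They carry a name only because the authors listed them as differing on these same arrays. No pattern of such enzymes in general is read from them.

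Folding factors of the endoplasmic reticulum, the compartment in which Leprel1 acts, were read in the same way. They too are named only because the authors listed them as differing, so no general pattern is read from them. Pdia5, a disulfide isomerase, read 339 and 325 in C5, 270 and 280 in V7, and 88.5 and 70.0 in WT2. The chaperone Hyou1 read 562 and 405 in C5, 390 and 364 in V7, and 75.0 and 57.8 in WT2. Pdia3, another disulfide isomerase, read 45.6 and 38.1 in C5, 33.2 and 31.5 in V7, and 15.6 and 24.4 in WT2. Both adherent clones lay above WT2 for each of these genes, most narrowly for Pdia3. The fitted changes of Pdia3 against WT2 were 0.92 in C5 and 0.60 in V7 (log2), both under 2-fold and not called.

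Among matrix proteins outside the collagens, Thbs2 (thrombospondin 2) read 134 and 87.7 in C5, 246 and 230 in V7, and 121 and 99.7 in WT2. Fbln2 (fibulin 2) read 13.3 and 14.9 in C5, 56.1 and 43.1 in V7, and 17.4 and 4.91 in WT2. Both were highest in V7, the clone in which Leprel1 was lowest. Their names also come only from the authors' lists of differing probe sets.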
